A study of Mus musculus with 6 samples.

Results

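The cytosolic ribosomal protein genes encode the proteins of the ribosome that translates nuclear messages. They were taken from the deposited gene table by symbol, as every gene named Rpl or Rps plus a number with at most a single trailing a, l or x, together with Rplp0, Rplp1, Rplp2 and Rpsa, and with a mean of at least 10 counts over the 6 libraries. The name matched 80 of the 22183 listed genes, and 77 of these passed the count minimum. They comprise 46 genes of the large (60S) subunit and 31 of the small (40S) subunit. The count minimum fell in a wide gap. Just inside it was Rps21 with a mean of 343 counts per library, and just outside were Rpl39l with a mean of 7.83, Rpl3l with 1.17 and Rpl10l with 0 counts in every library.

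Libraries came from peritoneal tissue of young adult, male, wild-type C57BL/6J mice given daily intraperitoneal injections for 6 weeks of either saline (3 mice) or PD fluid (3 mice), a high-glucose peritoneal dialysis solution. Both groups had the same genotype and differed by the injected fluid. Each library was made from the cells of 1 mouse, by oligo(dT) selection of messenger RNA. The labels describe magnetic selection of CD31+ cells, whereas the supplementary methods describe flow sorting of CD31+ CD45- cells from the mesentery.

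A ribosome holds a single copy of most of its proteins, so their messages are made in broadly matched amounts. In mammals most of these messages begin with a C followed by a run of pyrimidines, the 5′ terminal oligopyrimidine (TOP) sequence, through which mTOR and the binding protein LARP1 set their translation. Their genes have GC-rich promoters without a strong TATA box, and each has many processed pseudogenes elsewhere in the genome. They are among the most abundant messages of most cell types.

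Fewer ribosomal protein messages were counted in PD fluid mice. Of the 77 genes, 72 were lower in PD fluid mice and 0 were higher (adjusted p under 0.05; quasi-likelihood F-test of edgeR, adjusted by the Benjamini-Hochberg method over all 14005 tested genes), whereas after scaling to B cell markers instead of the whole library 0 were lower and 76 higher. With B cell marker scaling 12922 of the 14005 tested genes were higher and 59 lower, so the 76 lay near that background. With library-wide scaling, 27.8% of all tested genes were lower and 31.1% higher. The median log2 fold change (PD fluid over saline) of the 77 genes was -0.40, a level 24.4% lower, against 0.02 for all tested genes. In 71 of the 77 genes every PD fluid mouse was below every saline mouse, a pattern seen in 31.6% of all tested genes. The opposite pattern was seen in 0 of the 77 and in 34% of all tested genes. At an unadjusted p under 0.05, 74 genes were lower and 0 higher. Every fall given in the following paragraphs is on library-wide scaling, and with B cell marker scaling the log2 fold change of each of the 77 genes was above 0.

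The libraries did not hold endothelial transcripts alone, and their makeup differed between the groups. Ptprc, which encodes the leukocyte antigen CD45, averaged 2372 ± 127 CPM (read counts scaled to library size) for saline and 1472 ± 63.6 CPM for PD fluid, and Pecam1, which encodes CD31, averaged 469 ± 19.4 CPM and 513 ± 7.85 CPM (SD, n = 3 mice each). The median level of 8 B cell markers was 315 FPKM (fragments scaled to transcript length and library size) in saline mice, against 25.5 FPKM for 15 endothelial markers. All 8 B cell markers were lower in PD fluid mice, with a median log2 fold change of -1.02, and 14 of the 15 endothelial markers were higher, with a median of 0.98. All 10 macrophage, 8 fibroblast, 8 mesothelial and 15 tested pancreatic acinar markers were higher as well. Of 10 T and NK cell markers 5 were lower and 2 higher, and of 14 proliferation markers 10 were lower and 0 higher. Their part in the lower ribosomal protein levels was not tested. In bulk libraries, fewer cells of a type and less RNA per cell cannot be told apart.

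**Figure D1:**
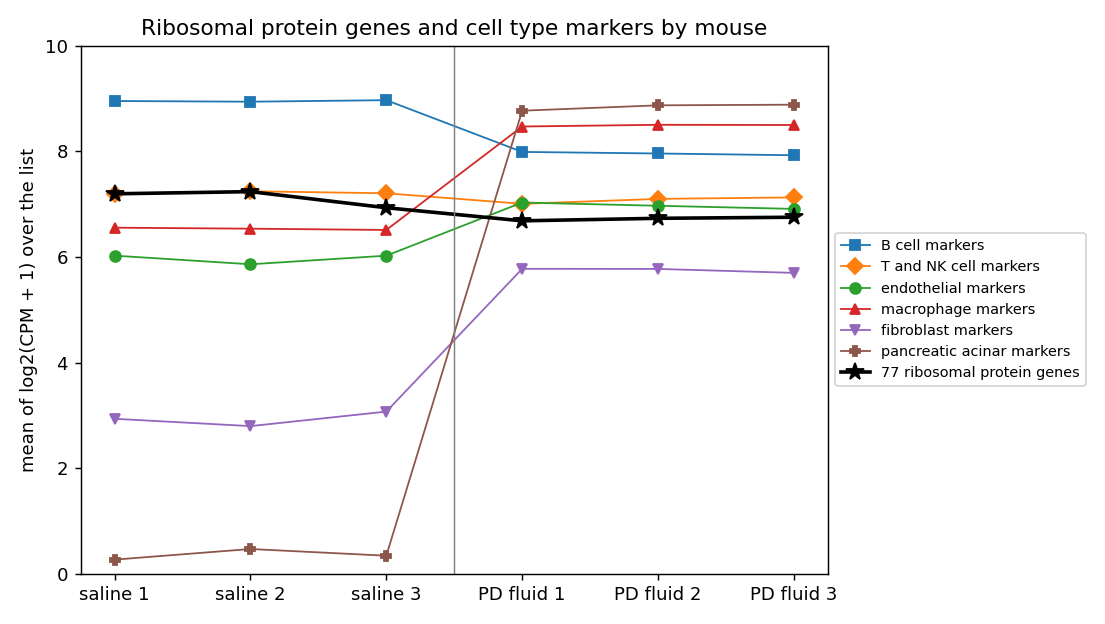
Mean log2(CPM + 1) of each marker list and of the 77 ribosomal protein genes (stars), for each of the 6 mice, with lines joining the same list. B cell markers lay between 8.94 and 8.97 in saline mice and between 7.93 and 7.99 in PD fluid mice. Endothelial markers rose from between 5.86 and 6.03 to between 6.91 and 7.03. The ribosomal protein genes went from between 6.93 and 7.24 to between 6.69 and 6.75 with library-wide scaling. With B cell marker scaling 76 of 77 were higher, as were 12922 of all 14005 tested genes.

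The share of all gene counts held by the 77 genes was 1.66%, 1.72% and 1.41% in saline mice 1, 2 and 3. It was 1.19%, 1.204% and 1.19% in PD fluid mice 1, 2 and 3. The PD fluid mice lay close together and below each saline mouse, and saline mouse 3 lay between the other saline mice and the PD fluid mice. As a share of summed FPKM, which corrects for transcript length, the 77 genes held 3.91%, 3.93% and 3.32% in saline mice and 2.83%, 2.81% and 2.75% in PD fluid mice. On both scales saline mouse 3 was the lowest saline mouse and each PD fluid mouse was below it.

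The genes moved together from mouse to mouse. Relative to its own mean over the 6 mice, every one of the 77 genes was above 0 in saline mice 1 and 2, 47 were above 0 in saline mouse 3, and 0, 1 and 1 were above 0 in PD fluid mice 1, 2 and 3. The median deviation was 0.28, 0.32 and 0.03 in saline mice and -0.24, -0.18 and -0.17 in PD fluid mice, in log2 units. The part of these counts that fell on large subunit genes was between 61.9% and 62.6% in every mouse, so the balance between the subunits varied by under a percentage point while the total varied. Saline mouse 3 thus stood apart from the other saline mice in nearly the whole family. Without it 76 genes were lower, and the median log2 fold change was -0.51. Without saline mouse 1 it was -0.37 and 57 genes were lower, and without saline mouse 2 it was -0.35 and 67 were lower. Without PD fluid mouse 1, 2 or 3 the lower genes numbered 67, 64 and 68. Among the 15 genes that lost their call without saline mouse 1 were Rpl11, Rpl15, Rpl18, Rpl24, Rpl28, Rpl36, Rplp0, Rplp2, Rps9, Rps10, Rps15a, Rps21, Rps26 and Rps28, and no gene outside the 15 lost its call without another mouse.

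**Figure D2:**
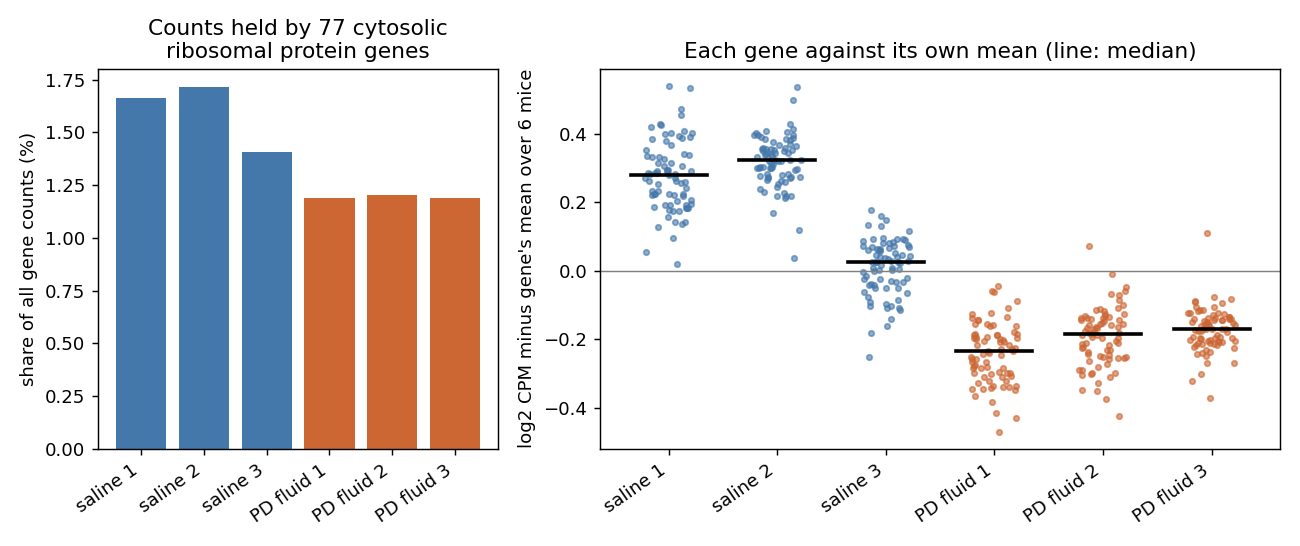
Left, share of all gene counts held by the 77 ribosomal protein genes in each mouse (percent). Right, log2 CPM of each gene minus its mean over the 6 mice, with a point for each gene and a black line at the median. Saline mice 1 and 2 sit at medians of 0.28 and 0.32, saline mouse 3 at 0.03 and the PD fluid mice between -0.24 and -0.17, on library-wide scaling. With B cell marker scaling the direction turned and 76 genes were higher in PD fluid mice, as were 12922 of all 14005 tested genes.

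The size of the fall was alike across the family. The middle 50% of log2 fold changes ran from -0.50 to -0.33, and their standard deviation was 0.13. Large subunit genes had a median of -0.39, with 43 of 46 lower, and small subunit genes a median of -0.43, with 29 of 31 lower. The genes lie on 19 chromosomes, and the median log2 fold change was below 0 on each. Across the 77 genes, Spearman's rho of the log2 fold change was 0.09 with the length of the main transcript. It was 0.20 with the length implied by counts and FPKM, and -0.19 with the mean FPKM in saline mice. The saline level also enters the fold change. These are descriptions across genes that share the same 6 libraries, and none of these relations was strong.

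**Figure D3:**
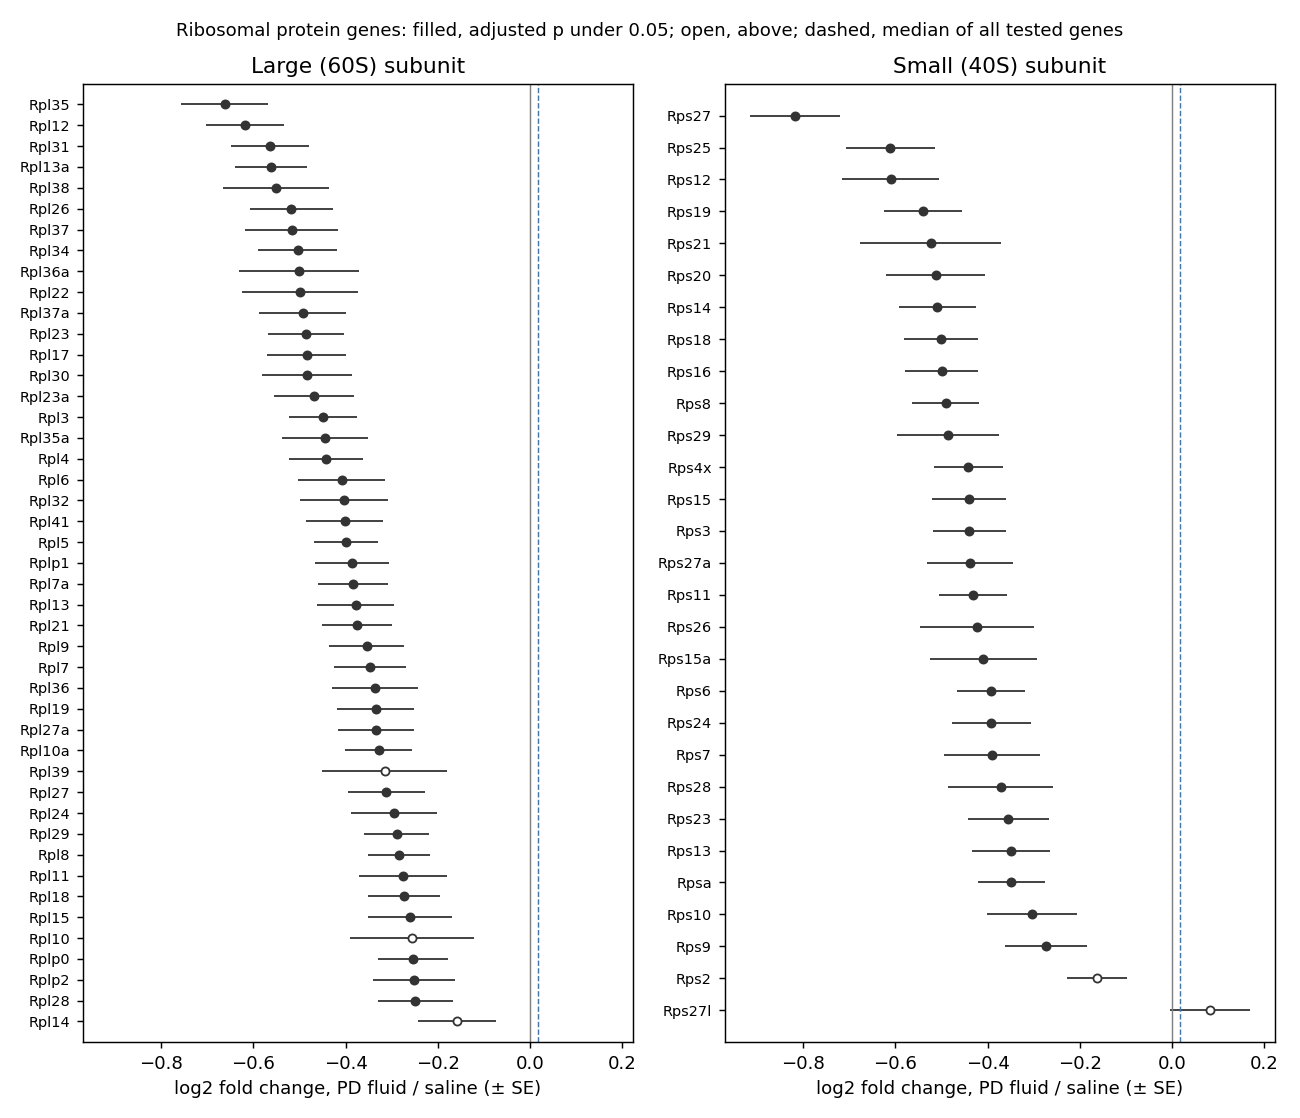
Log2 fold change of PD fluid over saline with its standard error (horizontal lines) for large and small subunit genes, each sorted by size, with library-wide scaling. Genes not reported here are left out of the plot. Filled points passed an adjusted p of 0.05 and open points did not, and the dashed line marks the median of all tested genes at 0.02. Points run from -0.82 for Rps27 to 0.08 for Rps27l, the only value above 0. With B cell marker scaling 76 were higher, as were 12922 of all 14005 tested genes.

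To place single genes within the family, counts were also scaled to the 77 genes themselves, so that a log2 fold change of 0 means a change equal to that of the family, which includes the gene itself. On that scale 5 genes departed at an adjusted p under 0.05 in edgeR over all tested genes. Rps27 and Rpl35 were lower than the family, and Rps2, Rpl14 and Rps27l were higher. Among all tested genes on that scale, 3.44% were lower and 49.8% higher. Their start regions are shown here with those of Rps6 and Rpl7a, whose fold changes lay near the family's median. Each line gives the sense strand (GRCm38.p6), from 10 bases before the RefSeq start to the 19 bases after the start base. Capitals mark the pyrimidine run of at least 5 bases nearest to the start. Rps27l has another RefSeq start, not shown, whose window held no such run.

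Rps27, chr3:90213629-90213658, minus strand: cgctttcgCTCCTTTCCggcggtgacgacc
Rpl35, chr2:39005112-39005141, minus strand: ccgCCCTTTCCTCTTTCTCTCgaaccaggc
Rps2, chr17:24720053-24720082, plus strand: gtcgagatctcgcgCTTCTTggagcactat
Rpl14, chr9:120571507-120571536, plus strand: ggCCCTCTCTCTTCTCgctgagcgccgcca
Rps27l, chr9:66946076-66946105, plus strand: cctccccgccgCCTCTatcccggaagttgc
Rps6, chr4:86857348-86857377, minus strand: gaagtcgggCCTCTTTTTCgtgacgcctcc
Rpl7a, chr2:26910797-26910826, plus strand: CTCTTCTTTCTTTCTCCagcagccgagcaa

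Rpl35, which fell more than the family, and Rpl14, which fell less, both carried a long pyrimidine run over the start, of 18 and 14 bases. Rps2 and Rps27l had runs of 6 and 5 bases. In RefSeq, 57 of the 77 genes matched, with 68 promoters. A start base C followed by 4 pyrimidines was present in 19.1% of the 68, in 2.51% of all 32851 promoters and in 0 of 75 promoters of mitochondrial ribosomal protein genes. A run of at least 8 pyrimidines within 20 bases of the start was present in 44.1% of the 68 and in 16.0% of all promoters. In the window from 250 bases before to 50 bases after the start, CCGGAA on either strand was present in 48.5% against 14.9% of all promoters, CTTTCC on either strand in 34 of the 68 against 26.6%, and AGATGGC on either strand in 13.2% against 6.40%. CCGGAA was also present in 25.1% of the promoters of tested genes. In the 75 mitochondrial promoters the pyrimidine run was present in 17.3%, CTTTCC in 33.3%, CCGGAA in 57.3% and AGATGGC in 16.0%, so that CCGGAA and AGATGGC were no less frequent there. TATAAA, searched on the gene's strand in the 40 bases before the start, was found in 0 of the 68, in 0 of the 75 mitochondrial promoters and in 2.31% of all promoters. The first pattern covers fewer genes than the known TOP messages, and it depends on the annotated start base.

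Rps27 (ENSMUSG00000090733, chr3:90212522-90213651, GRCm38) encodes a zinc-finger protein of the small subunit and was the gene with the largest fall. It was at 346, 345 and 261 CPM in saline mice and at 178, 178 and 184 CPM in PD fluid mice. The groups did not overlap, and the PD fluid mice were nearly equal. The log2 fold change of Rps27 was -0.82 (SE 0.10, adjusted p = 4.38e-05, edgeR), and -0.40 relative to the family (SE 0.09, adjusted p = 0.00311). Of the 50-base words in its transcript, 98.65% also occur in Rps27rt, so reads of these genes could not be fully separated. Rps27rt, an intronless copy of Rps27, was lower too, with a log2 fold change of -0.67 (SE 0.14, adjusted p = 0.00216, edgeR).

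Rps27l (ENSMUSG00000036781, chr9:66946086-66949516), a paralog of Rps27 and a known p53 target, was the only gene of the 77 with a log2 fold change above 0 on library-wide scaling. It was at 50.9, 51.4 and 44.2 CPM in saline mice and at 48.1, 52.8 and 54.1 CPM in PD fluid mice. The groups overlapped, with a log2 fold change of 0.08 (SE 0.09, adjusted p = 0.441), and 0.49 relative to the family (SE 0.11, adjusted p = 0.00235). The FPKM of Rps27l was 10.1%, 10.3% and 11.7% of that of Rps27 in saline mice and 18.6%, 20.5% and 20.3% in PD fluid mice, without overlap. The log2 ratio of their CPM was 0.89 higher in PD fluid mice, with p = 0.1 in a two-sided exact permutation test, which is the lowest that groups of 3 can reach, and 0.3 after adjustment over 6 pairs. This ratio does not depend on the scaling of the libraries.

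**Figure D4:**
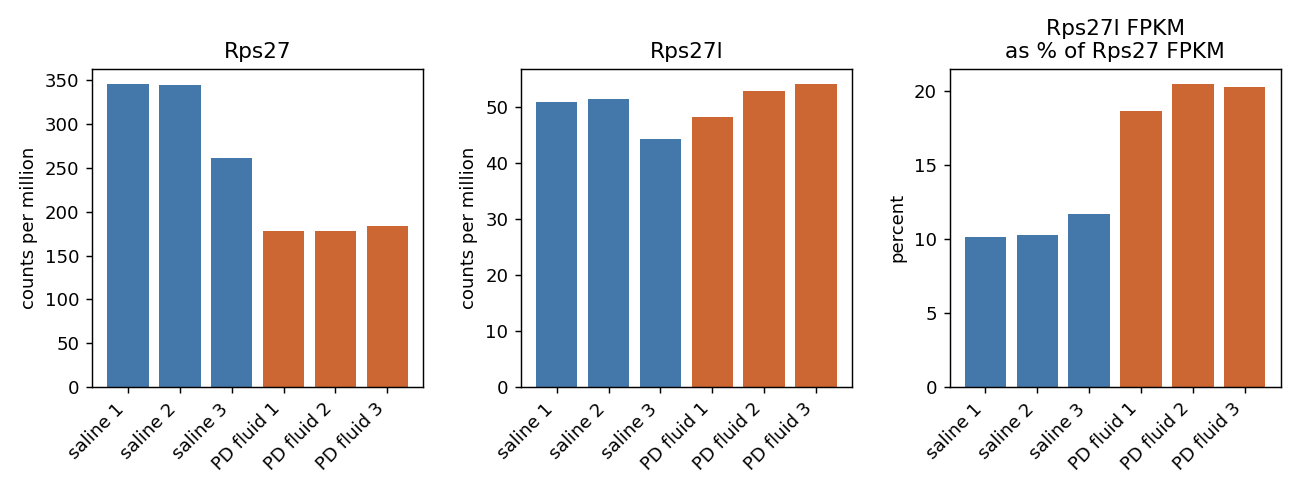
CPM of Rps27 and of its paralog Rps27l in each mouse, and the FPKM of Rps27l as a percentage of that of Rps27. Rps27 lies at 261 to 346 CPM in saline mice and 178 to 184 CPM in PD fluid mice, Rps27l overlaps between the groups, and the percentage is 10.1 to 11.7 in saline mice and 18.6 to 20.5 in PD fluid mice.

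The other 5 pairs of a gene and its paralog or copy showed smaller shifts. For Rpl7l1, a relative of Rpl7, the log2 ratio of its CPM to that of Rpl7 was 0.22 higher in PD fluid mice without overlap (exact permutation test, p = 0.1, 0.3 adjusted). On the FPKM scale the groups overlapped, with Rpl7l1 at 37.0%, 34.5% and 40.7% of Rpl7 in saline mice and 39.3%, 39.96% and 34.8% in PD fluid mice. For Rpl7l1 itself the log2 fold change was -0.12 (adjusted p = 0.114, edgeR). The ratios of Rpl22l1 to Rpl22, Rpl36al to Rpl36a, Rps27rt to Rps27 and Rpl10-ps3 to Rpl10 overlapped between the groups, with differences from 0.06 to 0.18. The testis-expressed paralogs Rpl39l and Rpl10l were near or at 0. Rpl39l had 7, 5 and 4 counts in saline mice and 11, 9 and 11 in PD fluid mice, and was not tested.

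At the large subunit's stalk, where translation factors dock, all 4 genes fell, and none departed from the family when counts were scaled to it (adjusted p from 0.111 to 0.852, edgeR). Rpl12, whose protein sits at the stalk base, was at 95.1, 93.8 and 82.4 CPM in saline mice and 54.1, 60.03 and 62.7 CPM in PD fluid mice. It had a log2 fold change of -0.62 (SE 0.08, adjusted p = 0.00011, edgeR), among the largest of the family. Rplp0, the stalk's anchor, was at 676, 723 and 593 CPM in saline mice and 533, 572 and 564 CPM in PD fluid mice. Its groups were close together but did not overlap, and its log2 fold change was -0.25 (SE 0.08, adjusted p = 0.0138). The acidic stalk proteins Rplp1 and Rplp2 had log2 fold changes of -0.39 and -0.25 (adjusted p = 0.00187 and 0.0306). Without saline mouse 1, Rplp0 and Rplp2 no longer passed (adjusted p = 0.0584 and 0.113, edgeR), and Rplp2 also failed without saline mouse 2, PD fluid mouse 2 or PD fluid mouse 3 (adjusted p = 0.0898, 0.0857 and 0.0958).

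Around the exit of the large subunit's peptide tunnel, where chaperones and the secretion machinery bind, 8 of 9 genes fell, with a median log2 fold change of -0.50. In the whole family 93.5% were lower, with a median of -0.40, against 27.8% of all tested genes. Rpl35, a tunnel exit protein, was at 497, 536 and 404 CPM in saline mice and 291, 298 and 319 CPM in PD fluid mice. Each PD fluid mouse was well below each saline mouse, with a log2 fold change of -0.66 (SE 0.09, adjusted p = 0.000146, edgeR), and -0.25 relative to the family (SE 0.09, adjusted p = 0.0358). Rpl31, Rpl38 and Rpl26 had log2 fold changes of -0.56, -0.55 and -0.52. Rpl39, a very small protein of the tunnel, was the gene of this group that did not pass. It was at 23.9, 23.6 and 17.2 CPM in saline mice and 17.6, 16.1 and 18.2 CPM in PD fluid mice, and only saline mouse 3 overlapped with the PD fluid mice. Its log2 fold change was -0.32 (SE 0.13, adjusted p = 0.0641), and without saline mouse 3 it was -0.46 (adjusted p = 0.0063).

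Rpl5 and Rpl11, which travel with the 5S ribosomal RNA and can bind the p53 inhibitor MDM2, and Rpl23, which can also bind it, all fell. Rpl5 was at 239, 242 and 216 CPM in saline mice and 167, 176 and 187 CPM in PD fluid mice. It had a log2 fold change of -0.40 (SE 0.07, adjusted p = 0.000597, edgeR), and Rpl23 had -0.49 (SE 0.08, adjusted p = 0.000508). Rpl11 was at 92.7, 96.2 and 73.8 CPM in saline mice and 72.3, 72.7 and 72.0 CPM in PD fluid mice, so that saline mouse 3 lay just above the PD fluid mice. Its log2 fold change was -0.28 (SE 0.10, adjusted p = 0.0275), and it lost the call when any mouse but saline mouse 3 was left out, with adjusted p from 0.0608 to 0.114. The messages of Mdm2 and of Trp53, which encodes p53, had log2 fold changes of 0.05 and -0.09 (adjusted p = 0.551 and 0.280).

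Rpl13, Rpl4, Rplp0 and Rpl3 were among the large subunit genes with the most counts. Rpl13 was at 1084, 1136 and 893 CPM in saline mice and 794, 817 and 785 CPM in PD fluid mice, without overlap, and at 1325 FPKM and 1027 FPKM on average. It had a log2 fold change of -0.38, Rpl4, which lines part of the peptide tunnel, had -0.44, and Rpl3, near the site where peptide bonds form, had -0.45, and all passed (adjusted p = 0.00278, 0.000774 and 0.00042, edgeR). Rpl13a, whose protein can also leave the ribosome to repress inflammatory messages in myeloid cells, was at 366, 394 and 321 CPM in saline mice and 232, 248 and 252 CPM in PD fluid mice. Its log2 fold change of -0.56 (SE 0.08, adjusted p = 0.00013) was among the larger falls. The smallest change that passed was that of Rpl28, which averaged 36.3 ± 1.67 CPM for saline and 30.6 ± 0.0422 CPM for PD fluid (SD, n = 3 mice each), with a log2 fold change of -0.25 (adjusted p = 0.0213). It failed without saline mouse 1 or PD fluid mouse 2 (adjusted p = 0.0984 and 0.076).

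Rpl14 and Rpl10 did not pass. Rpl14 was at 161, 187 and 146 CPM in saline mice and 146, 150.4 and 146 CPM in PD fluid mice, so that only saline mice 1 and 2 stood above the rest. The difference on the log2 scale was -0.16 (SE 0.08, adjusted p = 0.127), and 0.25 relative to the family (SE 0.10, adjusted p = 0.0481, edgeR). Rpl10, which joins the large subunit last, was at 82.0, 91.7 and 59.1 CPM in saline mice and 61.9, 70.0 and 63.1 CPM in PD fluid mice. Saline mouse 3 was the lowest of the 6, and the log2 fold change was -0.26 (SE 0.13, adjusted p = 0.122). Without that mouse Rpl10 and Rpl14 passed, with log2 fold changes of -0.42 and -0.24 (adjusted p = 0.00298 and 0.0238). Of the words of Rpl10, 85.36% occur in Rpl10-ps3, which was listed at 139 ± 10.9 CPM for saline and 130.1 ± 7.21 CPM for PD fluid (SD, n = 3 mice each), with a log2 fold change of -0.09 (adjusted p = 0.303).

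In the small subunit, most genes around the path of the message passed. Whether those at its entry and exit differed was not tested. Of 3 proteins at the mRNA entry channel, Rps3 and Rps9 fell, with log2 fold changes of -0.44 and -0.27 (adjusted p = 0.000729 and 0.0206, edgeR). Rps9 failed without saline mouse 1, saline mouse 2, PD fluid mouse 1 or PD fluid mouse 2, with adjusted p from 0.0511 to 0.0644. Rps2, the third, was at 276, 291 and 254 CPM in saline mice and 250.4, 239.9 and 243 CPM in PD fluid mice. The groups did not overlap, although saline mouse 3 was close to PD fluid mouse 1. Its log2 fold change was -0.16 (SE 0.06, adjusted p = 0.0502, edgeR), and 0.24 relative to the family (SE 0.10, adjusted p = 0.0492), both near the threshold. Without saline mouse 3 Rps2 passed, with a log2 fold change of -0.22 (adjusted p = 0.0179). It also passed with DESeq2 size factors, upper-quartile factors and gene-length offsets (adjusted p = 0.0494, 0.0396 and 0.0407, edgeR). Across the whole family 93.5% of genes were lower, with a median of -0.40, against 27.8% of all tested genes. All 6 genes at the exit channel fell, with a median of -0.41. Among them Rpsa, which was first described as a laminin receptor, had a log2 fold change of -0.35 (SE 0.07, adjusted p = 0.00189).

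Among the other small subunit genes, Rps25, which some viral messages need to start translation, was at 282, 226 and 218 CPM in saline mice and 154, 150.5 and 170.2 CPM in PD fluid mice. Rps25 had a log2 fold change of -0.61 (SE 0.10, adjusted p = 0.000304, edgeR), and that of Rps12 was -0.61 (SE 0.11, adjusted p = 0.000561). Rps6, the substrate of the S6 kinases, was at 403, 454 and 374 CPM in saline mice and 305, 315 and 318 CPM in PD fluid mice. With a log2 fold change of -0.39 (SE 0.07, adjusted p = 0.000959) it was close to the family's median. Rps19, the gene most often mutated in Diamond-Blackfan anemia, averaged 495 ± 61.8 CPM for saline and 341 ± 1.81 CPM for PD fluid (SD, n = 3 mice each), with a log2 fold change of -0.54 (adjusted p = 0.000281). All 19 mouse orthologs of genes linked to that anemia fell, with a median of -0.40. These values lay near those of the whole family, with 93.5% lower and a median of -0.40. Of all tested genes 27.8% were lower. Rps21, the gene of the 77 with the fewest counts, was at 19.3, 18.3 and 12.9 CPM in saline mice and 11.8, 11.3 and 12.0 CPM in PD fluid mice. Its log2 fold change was -0.52 (SE 0.15, adjusted p = 0.0122), and without saline mouse 1 it was -0.40 (adjusted p = 0.0635).

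Most ribosomal protein genes that the symbol rule left out were lower too. Of 12 such entries 10 were tested, and 8 were lower and 0 higher, beside 27.8% lower among all tested genes. Of the 8, the pseudogene Rps18-ps6 passed narrowly, with a log2 fold change of -0.59 (adjusted p = 0.0467, edgeR). It failed in DESeq2 and limma-voom (adjusted p = 0.0803 and 0.0571). It also failed when any mouse but saline mouse 1 was left out (adjusted p = 0.0641 to 0.141, edgeR). Rpl7l1 and the pseudogene Rpl9-ps6 did not pass. Rpl9-ps6 had 2 to 20 counts per library and the 1 log2 fold change above 0, at 0.39 (SE 0.57, adjusted p = 0.581, edgeR). Fau, like Rps27a among the 77, encodes a ribosomal protein fused to ubiquitin or a ubiquitin-like protein, and Rps27a and Fau had log2 fold changes of -0.44 and -0.45 (adjusted p = 0.00214 and 0.000458, edgeR). Rack1, a signalling scaffold on the small subunit, was at 281, 277 and 256 CPM in saline mice and 178, 190.1 and 201 CPM in PD fluid mice, a log2 fold change of -0.52 (SE 0.07, adjusted p = 7.83e-05). Rps3a1, the main mouse gene for its protein, had -0.42 (adjusted p = 0.00288). Rpl22l1 and Rpl36al had -0.44 and -0.32 (adjusted p = 0.00721 and 0.012), compared with -0.50 for both Rpl22 and Rpl36a, and Rpl36al failed without saline mouse 1 (adjusted p = 0.0661).

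Mitochondrial ribosomal protein genes, which encode the proteins of a separate ribosome and are not counted among TOP messages, were compared as the most similar family. Of 78 genes 49 were lower and 1 higher, beside 27.8% and 31.1% of all tested genes. The 78 had a median log2 fold change of -0.33 and 73 values below 0. The higher gene was Mrps6, which averaged 9.98 ± 0.933 CPM for saline and 18.2 ± 1.10 CPM for PD fluid (SD, n = 3 mice each), with a log2 fold change of 0.87 (SE 0.12, adjusted p = 0.000118, edgeR) that turned to -0.16 with endothelial marker scaling. Mrps18c and Mrps14 had the lowest values, -0.72 and -0.71. The mitochondrial genes spread from -0.72 to 0.87, wider than the -0.82 to 0.08 of the cytosolic genes. Single genes set these ends, with Mrps6 at the upper mitochondrial end. The mitochondrial genes were also at lower levels, with a saline median of 37.0 FPKM against 180 FPKM. Whether the families differed was not tested.

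Other messages of the TOP class were lower as well. Of 20 genes 13 were lower and 0 higher, and all 20 log2 fold changes were below 0, with a median of -0.30. Eef1a1, the main elongation factor, was at 1354, 1510.2 and 1292 CPM in saline mice and 1087, 1137 and 1135 CPM in PD fluid mice. Its groups did not overlap, and its log2 fold change was -0.31 (SE 0.07, adjusted p = 0.00292, edgeR). Hnrnpa1, which encodes a splicing regulator, had the lowest value at -0.74 (SE 0.09, adjusted p = 5.66e-05). Among all tested genes 27.8% were lower and 31.1% higher, with a median of 0.02. The translation initiation factors had 14 of 35 (40%) lower, 0 higher and a median of -0.18. The elongation and termination factors had 7 of 12 lower, 0 higher and a median of -0.19. Without PD fluid mouse 1 the lower genes were 9 and 4 in these lists, and without PD fluid mouse 2 they were also 9 and 4. Of all tested genes 3248 of 14164 and 3121 of 14170 were lower without these mice. The 9 of 35 initiation factors lay near that background.

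**Figure D5:**
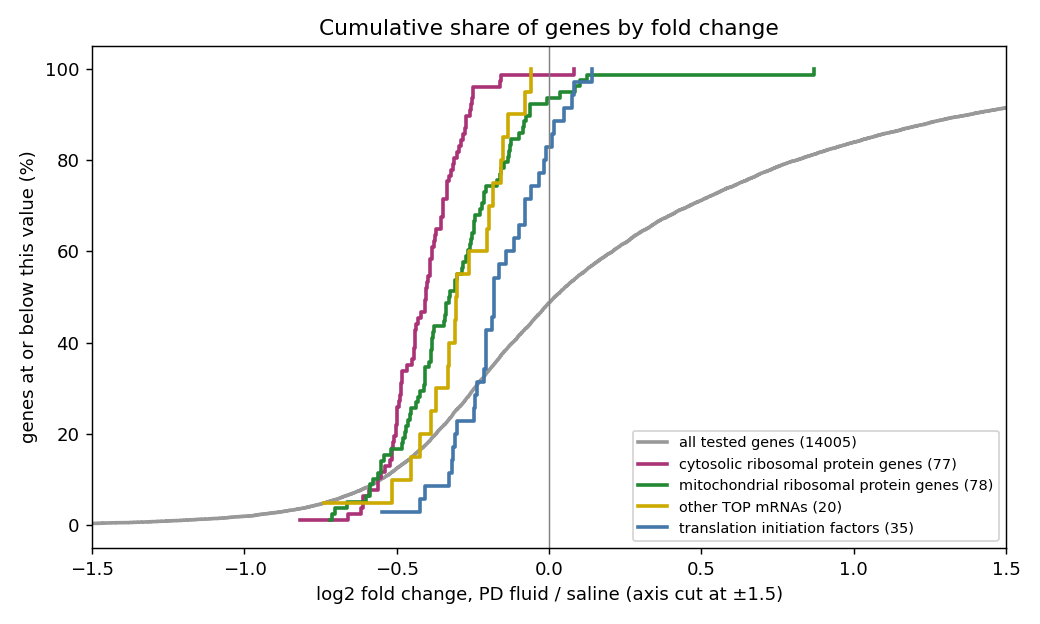
Cumulative share of genes (percent) by log2 fold change of PD fluid over saline, for all 14005 tested genes, the 77 cytosolic and 78 mitochondrial ribosomal protein genes, 20 other TOP messages and 35 translation initiation factors, with library-wide scaling. The medians are 0.02, -0.40, -0.33, -0.30 and -0.18, and the cytosolic ribosomal protein genes form the steepest curve. With B cell marker scaling their median was 0.60 and that of all tested genes 1.02.

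The machinery that builds ribosomes was lower in part. Of 75 ribosome biogenesis factors 36 (48%) were lower and 1 higher, with a median of -0.20, beside 27.8% lower and 31.1% higher among all tested genes. The lowest were Wdr43 at -0.66 and Ddx52 at -0.64 (adjusted p = 8.28e-06 and 0.000109, edgeR), both of which act on the small subunit's precursor. Of 20 tested genes for RNA polymerase I, which makes the ribosomal RNA precursor, 9 (45%) were lower and 1 higher. Taf1b and Rrn3, which bring the polymerase to its promoter, had -0.71 and -0.64 (adjusted p = 2.11e-05 and 4.78e-05). The higher genes were Rexo4 at 0.19 and Taf1c at 0.49 (adjusted p = 0.0472 and 0.0375, edgeR). With endothelial marker scaling, which moved the median of all tested genes to -1.01, both turned to values below 0. Rexo4 did not pass in DESeq2 (adjusted p = 0.0854), or in edgeR with DESeq2 size factors or gene-length offsets (adjusted p = 0.0599 and 0.233). Taf1c did not pass with gene-length offsets (adjusted p = 0.0604, edgeR). Rexo4 failed when any mouse but saline mouse 1 was left out (adjusted p = 0.0542 to 0.135), and Taf1c when any mouse but PD fluid mouse 3 was left out (adjusted p = 0.0592 to 0.197).

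In a list of 27 genes taken as regulators of ribosomal protein synthesis 10 were higher and 5 lower with library-wide scaling. With 31.1% of all tested genes higher and 27.8% lower, these counts lay near the background. With endothelial marker scaling, which moved the median of all tested genes to -1.01, 1 was higher, beside 1070 of all 14005 tested genes. The 10 include Cdkn1a, a p53 target that blocks the cell cycle and is not itself such a regulator. Cdkn1a was at 55.2, 45.5 and 51.7 CPM in saline mice and 153, 143 and 170.4 CPM in PD fluid mice. Its log2 fold change was 1.61 (SE 0.09, adjusted p = 1.05e-07, edgeR). Mxd1, an antagonist of MYC, and Deptor, an inhibitor of mTOR, had 1.16 and 1.13 (adjusted p = 9.57e-07 and 4.30e-05), and with endothelial marker scaling neither passed, at 0.13 and 0.10 (adjusted p = 0.282 and 0.554). Larp1, the TOP-binding repressor, was at 42.8, 36.0 and 39.2 CPM in saline mice and 58.9, 52.0 and 51.2 CPM in PD fluid mice, and Eif4ebp1, the mTOR-controlled inhibitor of cap binding, averaged 28.6 ± 1.02 CPM and 39.4 ± 1.12 CPM (SD, n = 3 mice each). Both log2 fold changes were 0.46 (adjusted p = 0.00146 and 0.000618), which turned to -0.57 with endothelial marker scaling. The S6 kinase genes Rps6kb1 and Rps6kb2 had -0.30 and -0.39 (adjusted p = 0.00851 and 0.00153). Myc averaged 192 ± 4.47 CPM for saline and 192 ± 3.07 CPM for PD fluid (SD, n = 3 mice each), a log2 fold change of 0.00 (SE 0.06, adjusted p = 0.989). Mtor had 0.25 (SE 0.15, adjusted p = 0.161).

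Because processed pseudogenes and copies share sequence with these genes, the overlap was measured for each. The share of 50-base words of the main transcript that occur in transcripts of other genes ran from 0% to 98.65%, the latter in Rps27. Of the 10 genes that share under 20%, 9 were lower, with a median log2 fold change of -0.41. In some of the 10 the main transcript was longer than the length implied by counts and FPKM, with 5179 against 685 bases in Rps15a. Extra length lowers the share, and Rps15a still shared words with 39 other genes. A low share therefore need not mean few ambiguous reads. Of the 16 genes that share at least 80%, 15 were lower, with a median of -0.38. Across the 77 genes, Spearman's rho between this share and the log2 fold change was 0.05.

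The direction of the change in the family depended on the reference. Scaled to the endothelial markers, all 77 genes were lower, with a median log2 fold change of -1.44. On that scale 10293 of all 14005 tested genes were lower and 1070 higher, and their median moved to -1.01. Scaled to the B cell markers, 0 were lower and 76 higher, with a median of 0.60. On that scale 59 of all 14005 tested genes were lower and 12922 higher, and their median moved to 1.02. Relative to the median of all tested genes, the family lay at -0.42 with library-wide scaling, at -0.43 with endothelial scaling and at -0.42 with B cell scaling.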

How the data were processed

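The authors deposited read counts per gene and mouse, without normalization, for 22183 genes, and FPKM values that they derived from them. The deposited group means, log2 ratios, p-values and FDR were not used. The submitters' processing notes name fastp 0.18.0, Bowtie2 2.2.8, HISAT2, StringTie and RSEM. Build, annotation and strand setting are not given in the sources used here, so positions are those of GENCODE M21 (GRCm38), matched by Ensembl identifier for 22128 genes, and promoters are those of RefSeq.

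Samples were grouped by the treatment label, and each column of sample values matched a sample label. Total counts ran from 21973426 to 26374292 per library. Counts were filtered with filterByExpr (14005 genes kept), scaled by TMM and tested in edgeR 4.0.16 (R 4.3.3) by the quasi-likelihood test with no covariate, a Benjamini-Hochberg threshold of 0.05, and standard errors taken from the F statistic. This count test replaced limma, which the study names, because counts were available. Nothing states whether mice shared a cage or day, and p-values measure the spread between 3 mice a group. Ratios of paralogs were compared by exact permutation tests (scipy 1.17.1). CPM are TMM-scaled, and levels of different genes were compared only as FPKM. Scripts were tested on simulated data.

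The genes and lists were chosen with earlier results of these data known. Named genes were those with the largest and smallest changes, the highest counts, the stalk, 5S and ubiquitin-fusion lists, the paralogs, the regulators and the extremes of other lists. Other genes of the family, Rpl10-ps3, Ptprc and Pecam1 were named after their values were seen. The 9 listed TOP-class snoRNA host RNAs were not analysed here. The alternatives were DESeq2 1.42.0, limma-voom 3.58.1, other normalizations and filters, gene-length offsets, the replicate number as a block and leaving out each mouse. B cell marker scaling, scaling to the family and the split by shared words were added after seeing the data. Plasma cell markers (4 of 6 higher, 1 lower), neutrophil markers (6 of 7 tested higher), pericyte and smooth muscle markers (8 of 9 higher) and erythroid markers (1 of 7 higher, 2 lower) completed the marker lists. Some genes of the family enter the counts and medians but are not reported here by name.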

Additional observations from a re-analysis of the deposited data

How the results depend on the processing

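The count of lower ribosomal protein genes was 72 or 73 with DESeq2, limma-voom, DESeq2 size factors, upper-quartile factors, library totals, gene-length offsets, other filters on low counts, and without acinar and immunoglobulin counts, and it was 58 at an adjusted p under 0.01 and 68 with a change of at least 1.2-fold. Leaving out each mouse gave between 57 and 76 lower and 0 higher genes, medians from -0.51 to -0.35 and a share difference from -0.50 to -0.34 percentage points (-0.40 with all mice, -0.92 as a share of summed FPKM). The 15 calls lost without saline mouse 1 included every call lost without another mouse. Leaving out mice gave 36 to 50 lower mitochondrial genes (medians -0.36 to -0.28), 12 to 17 other TOP messages, 9 to 17 initiation factors, 4 to 7 elongation factors, 30 to 37 biogenesis factors, 7 to 8 polymerase I genes and 7 to 12 higher regulators. With gene-length offsets 22 initiation factors were lower, and Rpl36 lost its call (log2 fold change -0.15, adjusted p = 0.160, edgeR). Replicate numbers did not pair the mice (correlations of deviations 0.19, 0.07 and -0.27), and with the replicate number as a block the same 72 genes were lower (median -0.40). Of the other results, those of Rps18-ps6, Rexo4 and Mycn lost their call under the block. The cause of these shifts was not tested.

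With B cell marker scaling 0 ribosomal protein genes were lower and 76 higher (median 0.60). Among all 14005 tested genes 59 were lower and 12922 higher. The other gene lists, whose falls are given with library-wide scaling, were not counted on that scale. With endothelial marker scaling the median of the ribosomal protein genes was -1.44, and that of the mitochondrial genes -1.36 (77 lower). On the same scale 20 other TOP messages, 35 initiation factors, 11 elongation factors, 75 biogenesis factors and 20 polymerase I genes were lower. In the list of regulators 1 gene was higher. Among all 14005 tested genes 10293 were lower and 1070 higher with endothelial marker scaling. That scaling moves all genes down, and it turned the log2 fold changes of Mrps6 to -0.16, Mxi1 -0.51, Eif4ebp1 -0.57, Larp1 -0.57, Tsc2 -0.49, Mycl -0.11, Taf1c -0.55, Mxd4 -0.75, Rexo4 -0.84, Akt1s1 -0.76, Mycn -0.054, Pecam1 -0.90, Rptor -0.70, Mtor -0.77, Rps27l -0.95, Eif4ebp2 -0.94, Mdm2 -0.98 and Myc -1.03. With 3 mice a group, the standard error of a log2 fold change in the family reached 0.15, in Rps21, the gene with the fewest counts.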
